A study of Mus musculus with 82 samples.

Results

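The response to plain ovalbumin (OVA) was compared between naive and previously primed CD8 T cells, as a difference of differences: the change from saline to OVA in primed cells minus the same change in naive cells. Of the 82 libraries of the series, 27 entered the comparison, 10 of naive and 17 of primed cells. All 10 prophylactic OT-I libraries given saline or OVA were taken as naive. Among the therapeutic libraries given saline or OVA, those with more estimated counts of Cd8a than of Cd4 were taken as primed, whatever their cell type label. This choice used the coreceptor genes and no other gene. The lowest Cd8a to Cd4 ratio among the 17 taken was 225, with 40124 counts of Cd8a and 178 of Cd4, and the highest among the 16 not taken was 0.0243, with 316 counts of Cd8a and 13027 of Cd4. Of the primed libraries 14 were labelled OT-I and 3 OT-II (OVA 6, OVA 8 and saline 3), and 4 libraries labelled OT-I with more Cd4 than Cd8a were left out.

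OT-I cells are CD8 T cells that carry a transgenic receptor for an ovalbumin peptide. OT-II cells, their CD4 counterpart with another ovalbumin receptor, had been transferred into the same recipients. Naive OT-I cells met saline (5 libraries) or 5 µg of OVA (5 libraries) 1 day after transfer. Each of these libraries pooled 3 mice, with sorting directly into Trizol. By label, batch 1 holds 3 libraries per treatment and batch 2 holds 2. Primed cells came from mice immunized under the skin with ovalbumin in complete Freund's adjuvant 1 day after transfer. A month later they were given saline (7 libraries) or 5 µg of OVA (10 libraries), each library came from 1 mouse, and sorted cells were snap frozen. In both experiments spleen and lymph nodes were collected 4 days after the antigen. The strain label reads C57BL/6 for the naive libraries, while in the therapeutic labels its last number increases from sample to sample, and no age is given. Priming, pooling, sorting fluid and collection therefore differ together between naive and primed libraries and cannot be told apart in a level set across the experiments. The contrast of OVA with saline lies within each experiment. The difference between the 2 responses is still taken across the experiments, so these factors cannot be told apart there either. Which of them a difference in response goes with was not tested.

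A naive CD8 T cell that meets its antigen divides, switches on adhesion molecules, chemokine receptors and effector genes, and also switches on inhibitory receptors such as PD-1 and LAG-3, which restrain signalling. After the antigen is gone a part of its progeny stays as memory cells, which keep many effector and migration genes transcribed and depend on interleukin 7 for survival. A soluble protein given without an adjuvant is a weak stimulus that often leaves CD8 T cells unresponsive or leads to their loss.

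Totals of estimated counts ran from 33.5 to 68.2 M (mega) in naive and from 24.7 to 62.5 M in primed libraries. Cd8b1, the other chain of the CD8 coreceptor and not used in the choice of libraries, lay between 1494 and 2304 counts per M after scaling (CPM, used for all levels here) in naive and between 1426 and 2717 CPM in primed libraries, and it passed the test in neither response (log2 difference between the responses -0.10, SE 0.22, adjusted p = 1.00). Some libraries stood apart. Primed OVA 3, 4 and 5 had 19484 to 21312 detected genes, against at most 16898 in the other primed libraries. Naive batch 1 OVA 1 held Cd4 at 157.8 CPM and naive batch 2 saline 1 at 39.4 CPM, where the other naive libraries reached at most 7.33 CPM. The summed level of 15 B cell markers was 2070 CPM in naive batch 2 saline 1 and 736 CPM in naive batch 2 OVA 2, where the medians were 116 CPM in naive saline and 137 CPM in naive OVA libraries, and the medians in primed saline and primed OVA libraries were 547.5 and 464.6 CPM. That of 10 erythroid and platelet genes differed in median between treatments, with overlapping ranges: it had medians of 84.3 CPM (range 67.9 to 679) in primed saline and 383 CPM (range 14.8 to 1142) in primed OVA libraries, and of 228 CPM (range 49.6 to 321) in naive saline and 116 CPM (range 70.4 to 179) in naive OVA libraries. Naive batch 2 saline 1 also held 701 CPM of myeloid markers, where the naive saline median was 125 CPM. The median log2 difference between the responses was 1.15 over 21 myeloid genes and 2.12 over 7 stroma genes tested. Over all genes tested it was 0.06. In these 2 lists no difference lay below 0 and none was called. The part of these RNAs in the results was not tested. The counts below are given with and without the libraries that stood apart by detected genes or Cd4. In bulk RNA, fewer cells of a type and less RNA per cell cannot be told apart.

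Most genes whose response to OVA differed rose in naive cells and did not pass the test in primed cells. With edgeR, 39 of 14775 tested genes differed between the 2 responses at an adjusted p under 0.05, which is 0.264% of the genes tested; the response was smaller in primed cells for 37 of them (0.250%) and larger for 2 (0.0135%). At an unadjusted p under 0.05 there were 692. In the same joint fit OVA raised 168 genes (1.14%) and lowered 1 (0.00677%) in naive cells. In primed cells it raised 225 (1.52%) and lowered 286 (1.94%), together 3.46%. These counts depended on the joint fit. Separate fits of the 2 experiments called 549 genes higher and 259 lower in naive cells, and 70 higher and 73 lower in primed cells. DESeq2 with its own size factors shifted the primed split to 717 higher and 454 lower. Of the 37 genes with the smaller primed response, 35 rose in naive cells, and of these 29 passed in neither direction in primed cells and 6 rose there too. The other two, Dkkl1 and Tnfsf14, passed in naive cells in neither direction and fell in primed cells. The naive saline and OVA libraries did not overlap in 34 of the 37, against 4.66% of all tested genes, and the primed groups did not overlap in 2, against 0.379%. Over the 37 genes the median log2 fold change was 2.64 in naive and 0.20 in primed cells, where the medians over all genes tested were -0.03 and 0.07; since these genes were selected by that difference, the counts and medians describe them and test nothing.

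Without the 3 libraries labelled OT-II 36 genes differed, 32 of them among the 39. Without the 3 libraries with many detected genes 27 differed (26 shared), without the 2 naive libraries with Cd4 51 (37 shared), and without all of these 41 (23 shared). The same 37 genes had a negative difference in each of these fits. With limma voom 14 genes were called, all among the 39: Itgb1, Nrp1, Ctla2a, Ctla2b, Slamf7, Klrk1, Lag3, Cxcr3, Cd44, S100a6, Anxa2, Jdp2, Samd3 and Stk39. With naive batch 1 alone beside the primed libraries 32 genes differed (23 shared) and with batch 2 alone, which has 2 libraries per treatment, 4 differed (Itgb1, Nrp1, Ctla2a and Ctla2b). With the therapeutic libraries grouped by label, so that 4 libraries with Cd4 over Cd8a joined the primed groups, 3 genes differed: Itgb1, Jdp2 and Nrp1.

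**Figure D1:**
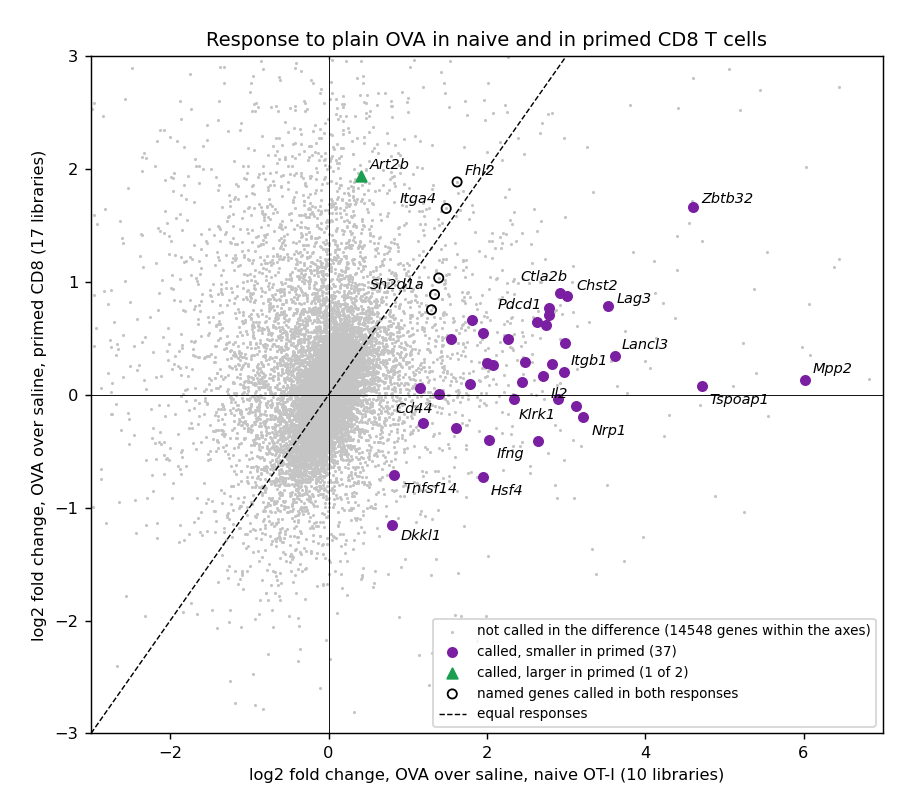
Log2 fold change of OVA over saline in naive OT-I cells (x axis) and in primed CD8 cells (y axis), 1 point per tested gene, with the genes called in the difference in colour and genes beyond the axis limits, Heyl among them, not drawn. The 37 genes with a smaller primed response lie to the right of the dashed line of equal responses and mostly near 0 on the y axis, while Itga4 and Fhl2 lie near that line and Art2b to its left.

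Adhesion and guidance receptors held the 2 differences that passed the test under every alternative tried. Itgb1, the integrin beta 1 chain that pairs with many alpha chains to bind matrix and endothelium (chr8:128685654-128733200), lay at 122, 109.9, 120.5, 164 and 169 CPM in the naive saline libraries and at 539, 919.5, 1453, 1100 and 1301 CPM in the naive OVA libraries. Primed libraries lay between 951 and 1591 CPM after saline (median 1456) and between 849 and 2898 CPM after OVA (median 1625). The naive groups did not overlap, the primed groups did, and the primed saline libraries overlapped the naive OVA libraries. The log2 fold change was 2.97 (SE 0.26, adjusted p = 2.26e-08) in naive and 0.20 (SE 0.19, adjusted p = 0.607) in primed cells, a difference of -2.77 (SE 0.31, adjusted p = 5.68e-06).

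Nrp1, encoding neuropilin 1, a coreceptor for semaphorins and growth factors that is also used as a marker of some regulatory and tolerant T cells (chr8:128358604-128503363), lay at 3.25, 2.89, 3.21, 13.0 and 5.75 CPM after saline in naive cells. After OVA these cells had 21.6, 25.9, 62.2, 63.0 and 60.1 CPM. Primed cells had 63.8 to 104.8 CPM after saline (median 83.7) and 46.6 to 122.7 CPM after OVA (median 64.9). Naive saline was low in every library, the primed groups overlapped, and every primed saline library lay above every naive OVA library. The log2 fold change was 3.21 (SE 0.29, adjusted p = 2.44e-08) in naive and -0.20 (SE 0.20, adjusted p = 0.649) in primed cells, and the difference was -3.41 (SE 0.34, adjusted p = 1.53e-06). Nrp1 is also 1 of 8 regulatory T cell markers, whose summed level ran from 53.5 to 152 CPM in naive saline, 149 to 265 CPM in naive OVA, 330 to 492.5 CPM in primed saline and 220.5 to 556 CPM in primed OVA libraries, with none of the 8 at 0 in a group. Of these 8 markers 3 rose in naive cells and none fell there, and in primed cells none rose and Capg fell. Their median log2 fold changes were 0.47 in naive and 0.11 in primed cells. Foxp3, the defining factor of those cells, had means of 3.10 CPM ± 3.71 (SD, n = 5) in naive saline and 1.44 CPM ± 0.874 (SD, n = 5) in naive OVA libraries and was under 1 CPM on average in both primed groups. The part of regulatory T cells in the results was not tested. Itgb1 and Nrp1 are neighbours on chromosome 8, 182.3 kb apart with no other tested gene between them. S100a4 and S100a6 on chromosome 3 (6.8 kb apart) and Ctla2a and Ctla2b on chromosome 13 (36.7 kb) are neighbours as well.

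Of 26 homing and adhesion genes, 6 rose in naive cells (1.14% of all tested genes did), among them Itgb1, Itga2, Itga4 and Cxcr3. In primed cells 1 rose and 4 fell, against 1.52% and 1.94% of all tested genes. Between the responses 2 differed, Itgb1 and Cxcr3, against 0.264% of all tested genes. The median difference over the 26 was -0.40, against 0.06 over all genes tested. Cxcr3, the receptor for chemokines induced by interferon gamma, lay at 57.6, 52.9, 58.7, 70.7 and 107.1 CPM in naive saline and at 199.5, 300.4, 306, 305.7 and 245.5 CPM in naive OVA libraries. In primed cells its medians were 426 CPM after saline (range 372 to 644) and 642 CPM after OVA (range 297 to 783). The naive groups were apart and the primed groups overlapped, with a difference of -1.72 (SE 0.30, adjusted p = 0.00401).

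**Figure D2:**
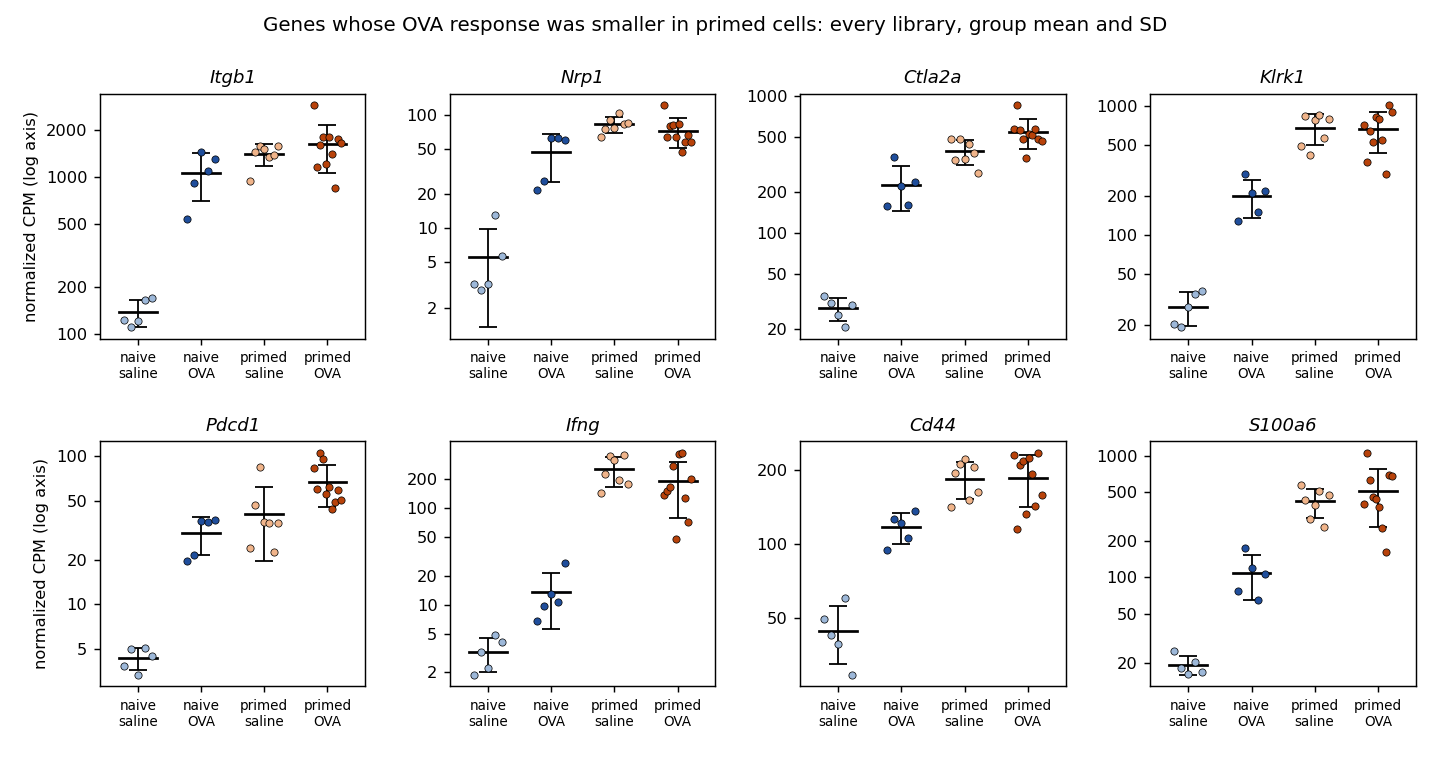
Normalized CPM on log axes of 8 genes called in the difference, with 1 point per library, a line at the group mean and a bar of 1 SD on each side, for naive saline (n = 5), naive OVA (n = 5), primed saline (n = 7) and primed OVA (n = 10) libraries. In each panel the naive saline libraries are lowest, and the primed saline and primed OVA libraries overlap.

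The Ctla2 genes encode small proteins related to the propeptide of cathepsins and were among the clearest differences. Ctla2a (chr13:60934155-60936625) rose in naive cells from 34.7, 30.8, 25.2, 20.5 and 30.1 CPM to 157, 356.5, 219, 159 and 233 CPM. Primed libraries had a median of 381.5 CPM after saline (range 274 to 487) and of 523.5 CPM after OVA (range 352 to 858). The naive groups were apart and the primed groups overlapped. The log2 fold changes were 2.99 (SE 0.23, adjusted p = 1.66e-09) and 0.46 (SE 0.17, adjusted p = 0.128), with a difference of -2.53 (SE 0.28, adjusted p = 4.06e-06). Ctla2b (chr13:60895350-60897447) rose in both, by 2.93 in naive and by 0.90 in primed cells, and still differed (-2.03, SE 0.24, adjusted p = 1.28e-05). The pair are close copies, so how the estimated counts split reads between them is uncertain. Their promoters are shown because both genes moved together and their windows are alike: over 228 aligned positions 208 are identical. The windows are the 250 bases before the RefSeq start in GRCm38.p6, read 5′ to 3′ on the gene's strand (minus for both), at chr13:60936626-60936875 and chr13:60897448-60897697, with a match to the AP-1 motif TGANTCA in capitals.
Ctla2a: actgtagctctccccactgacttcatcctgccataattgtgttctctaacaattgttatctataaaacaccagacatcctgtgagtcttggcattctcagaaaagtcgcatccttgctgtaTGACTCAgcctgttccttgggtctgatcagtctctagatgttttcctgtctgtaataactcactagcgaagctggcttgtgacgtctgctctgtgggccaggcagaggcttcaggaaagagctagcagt
Ctla2b: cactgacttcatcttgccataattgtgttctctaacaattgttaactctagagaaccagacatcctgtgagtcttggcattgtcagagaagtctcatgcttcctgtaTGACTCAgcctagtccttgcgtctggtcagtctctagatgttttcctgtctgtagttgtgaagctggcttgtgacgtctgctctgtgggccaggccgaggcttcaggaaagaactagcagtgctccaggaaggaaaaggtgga

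The same motif, searched on both strands, was found in the windows of 6 of the 32 genes with a smaller primed response that had a RefSeq window (Tnfsf14, Anxa2, Slamf7, Ctla2a, Ctla2b and Bcl2a1d), which is 18.75% against 4.81% of 11529 tested genes with a window; Ctla2a and Ctla2b are not independent. Of the other motifs searched on both strands, a T-box motif (GGTGTGA) was in 1 of the 32 (3.13% against 3.02%), CCAAT in 9 (28.1% against 36.4%), TTTGAA, the core of the cell cycle homology region, in 4 (12.5% against 12.0%) and the Runx motif TGTGGT in 7 (21.9% against 11.3%). These are descriptions of letters, and binding was not measured. Slamf7, a self-binding receptor of the SLAM family on cytotoxic lymphocytes, carried the AP-1 letters near its RefSeq start (250 bases, chr1:171649000-171649249, minus strand). The GENCODE model of the gene, chr1:171632403-171653035, begins farther upstream, so the window lies inside it.
Slamf7: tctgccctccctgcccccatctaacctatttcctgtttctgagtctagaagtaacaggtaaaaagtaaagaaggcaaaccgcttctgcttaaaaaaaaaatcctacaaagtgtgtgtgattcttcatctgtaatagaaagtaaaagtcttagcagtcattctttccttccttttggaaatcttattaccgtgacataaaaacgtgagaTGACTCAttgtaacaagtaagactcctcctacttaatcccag

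Slamf7 rose in naive cells from 16.2, 15.2, 12.9, 31.5 and 16.1 CPM to 68.5, 128.7, 96.0, 86.2 and 104.1 CPM. The primed libraries lay between 149 and 288.5 CPM after saline and between 152 and 284.5 CPM after OVA, and the 2 groups covered nearly the same range. The log2 fold change was 2.44 in naive and 0.11 in primed cells (difference -2.33, SE 0.27, adjusted p = 5.91e-06).

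Among inhibitory receptors the genes of PD-1 and LAG-3 differed. Of 16 genes in this list, 4 rose in naive cells (Pdcd1, Lag3, Ctla4 and Cd160), against 1.14% of all tested genes. None passed in primed cells in either direction, where 3.46% of all tested genes did, so a list of this size would often hold none. The median log2 fold change was 0.81 in naive and 0.42 in primed cells. Pdcd1, encoding PD-1 (chr1:94038305-94052553), lay at 3.81, 4.99, 3.31, 5.07 and 4.46 CPM in naive saline and at 19.6, 21.5, 36.3, 35.9 and 37.0 CPM in naive OVA libraries. In primed cells it lay between 22.7 and 84.7 CPM after saline (median 35.6) and between 43.9 and 106 CPM after OVA (median 59.8). Naive saline stood alone and the primed groups overlapped. The log2 fold change was 2.78 (SE 0.31, adjusted p = 8.31e-07) and 0.71 (SE 0.23, adjusted p = 0.0765), a difference of -2.07 (SE 0.37, adjusted p = 0.00473). The Pdcd1 call was lost with limma voom (adjusted p = 0.107) and with naive batch 1 alone (0.0739) or batch 2 alone (0.373).

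Lag3, a receptor for MHC class II (chr6:124904361-124911705), lay at 0.462, 0.522, 0.355, 0.952 and 0.571 CPM in naive saline and at 5.33, 5.09, 8.34, 7.82 and 5.61 CPM in naive OVA libraries. In primed cells its median was 9.29 CPM after saline (range 5.90 to 25.2) and 20.5 CPM after OVA (range 15.0 to 26.0). The naive groups were apart, while the highest primed saline library reached into the primed OVA range. The log2 fold change was 3.52 (SE 0.33) in naive and 0.78 (SE 0.23, adjusted p = 0.0561) in primed cells, a difference of -2.74 (SE 0.38, adjusted p = 0.000186). Ctla4, which competes with CD28 for its ligands, had a difference of -1.89 that missed the threshold (SE 0.44, adjusted p = 0.0659), and Havcr2, encoding TIM-3, had one of -0.28 (SE 0.87, adjusted p = 1.00).

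Of 22 cytotoxic effector genes 7 rose in naive and 2 in primed cells (Gzmk and Serpinb6b), against 1.14% and 1.52% of all tested genes. From this list 1 gene differed, Ifng, against 0.264% of all tested genes. Ifng, encoding interferon gamma (chr10:118441046-118445892), lay at 1.85, 3.19, 2.22, 4.90 and 4.12 CPM in naive saline and at 6.76, 9.75, 12.9, 10.7 and 26.8 CPM in naive OVA libraries. Every primed library lay above every naive one, from 145 to 358 CPM after saline (median 229) and from 47.6 to 380 CPM after OVA (median 159). OVA thus separated the naive groups and left the primed ones overlapping, with log2 fold changes of 2.03 (SE 0.42, adjusted p = 0.00697) and -0.40 (SE 0.31, adjusted p = 0.516) and a difference of -2.43 (SE 0.51, adjusted p = 0.0265). The call for Ifng was lost when any of 8 libraries was left out (naive batch 1 saline 1, saline 3, OVA 2 or OVA 3, naive batch 2 saline 2 or OVA 2, primed saline 4 or saline 8), with an adjusted p of at most 0.133. It was also lost with naive batch 1 alone (adjusted p = 0.185) and with limma voom (0.701). Without the libraries labelled OT-II, those with many detected genes and the naive ones with Cd4 together it was lost too (0.0561). It was kept with DESeq2 (0.000546) and without each of these sets on its own.

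Gzmk, encoding granzyme K, rose in both, from 0.939, 0.580, 0.654, 0.878 and 3.05 CPM to 12.4, 56.5, 17.3, 12.9 and 31.6 CPM in naive cells and from a median of 100 CPM (range 47.9 to 137.5) to 294 CPM (range 42.8 to 630.2) in primed cells. Its log2 fold changes were 4.55 and 1.53, and the difference of -3.03 (SE 0.69) did not pass, with an adjusted p of 0.0516. It passed without the 3 libraries labelled OT-II (adjusted p = 0.0282). Gzmb, encoding granzyme B, rose in naive cells (2.87, SE 0.58, adjusted p = 0.00563) and ranged from 64.0 to 1484 CPM after OVA in primed cells (0.75, SE 0.42, adjusted p = 0.335). Its difference of -2.12 (SE 0.69) was not called (adjusted p = 0.488).

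**Figure D3:**
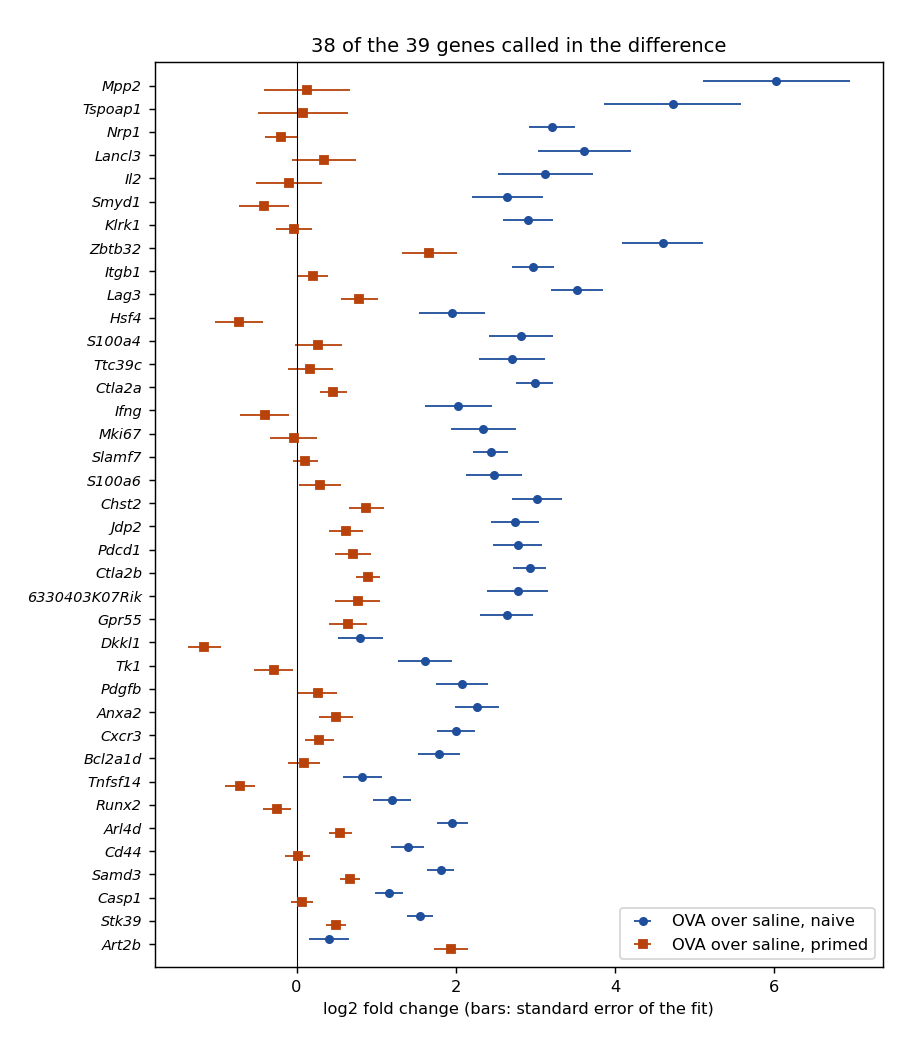
Log2 fold change of OVA over saline with its standard error in naive (circles) and primed (squares) cells for 38 of the 39 genes called in the difference, ordered by that difference; Heyl, with very few counts, is left out. Nearly all naive values lie above 1 and nearly all primed values between -1 and 1, and Art2b is the 1 gene shown with the larger primed value.

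Among 20 transcription factors of effector and exhausted cells, 4 rose in naive cells (Tbx21, Eomes, Zbtb32 and Ikzf3), against 1.14% of all tested genes. In primed cells 3 rose and 1 fell, against 1.52% and 1.94%. Zbtb32 differed, against 0.264% of all tested genes. Zbtb32, a zinc finger repressor that limits effector and memory responses (chr7:30589681-30598909), lay at 1.70, 0.479, 0.971, 5.27 and 3.43 CPM in naive saline and at 25.7, 40.2, 59.3, 61.0 and 44.3 CPM in naive OVA libraries. In primed cells its median rose from 38.4 CPM (range 21.5 to 59.4) to 89.8 CPM (range 48.3 to 291.5). It was called in both, with log2 fold changes of 4.60 (SE 0.51, adjusted p = 8.31e-07) and 1.67 (SE 0.35, adjusted p = 0.00719), and its difference of -2.93 (SE 0.57, adjusted p = 0.0114) was lost without naive batch 1 saline 3 (adjusted p = 0.0532), without the 3 libraries with many detected genes (0.0510) and with limma voom (0.266). Eomes, a T-box factor of memory and effector CD8 cells, rose by 0.81 in naive and by 0.71 in primed cells, a difference of -0.10 (SE 0.23, adjusted p = 1.00). Tbx21, encoding T-bet, had a difference of -1.71 (SE 0.41, adjusted p = 0.0805) that passed without the libraries labelled OT-II (adjusted p = 0.0187). Runx2, a runt factor linked to long-lived memory cells, was called as well (-1.44, SE 0.30, adjusted p = 0.0226), although its naive groups overlapped through naive batch 1 OVA 1 at 7.71 CPM.

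Of 40 cell cycle genes 8 rose in naive cells (Mki67, Top2a, Ccnb2, Ccne2, Tk1, Birc5, Aurkb and Cenpe), against 1.14% of all tested genes. The other 32 passed in neither direction there. None passed in primed cells, where 3.46% of all tested genes did. The median log2 fold change of the list was 1.37 in naive and 0.03 in primed cells, and 38 of the 40 differences were below 0, with a median of -1.40; Mki67 and Tk1 were called. Mki67, the Ki-67 antigen of dividing cells (chr7:135689784-135716361), lay at 5.13, 9.31, 3.68, 23.0 and 15.1 CPM in naive saline and at 27.1, 60.2, 43.9, 47.4 and 67.1 CPM in naive OVA libraries. Primed libraries held between 42.7 and 234 CPM after saline (median 70.0) and between 43.1 and 136 CPM after OVA (median 103.5). The naive groups were apart, and the primed groups covered each other. The difference was -2.38 (SE 0.49, adjusted p = 0.0222), and it was lost without naive batch 1 saline 1 (adjusted p = 0.0871), naive batch 1 saline 3 (0.0806) or naive batch 1 OVA 2 (0.0605), and without the 3 libraries with many detected genes (0.0628). Tk1, the thymidine kinase of DNA synthesis, had a difference of -1.90 (SE 0.42, adjusted p = 0.0385) that was lost in 15 of the 27 fits that left out 1 library, with an adjusted p of at most 0.136. Top2a, the topoisomerase of chromosome segregation, had one of -1.51 (SE 0.37, adjusted p = 0.0909).

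The promoter of Mki67 is shown because it carries the letters by which many division genes are recognised, 3 of CCAAT and 2 of TTTGAA (either strand, in capitals), in the 250 bases before its RefSeq start (GRCm38.p6, chr7:135716380-135716629, minus strand).
Mki67: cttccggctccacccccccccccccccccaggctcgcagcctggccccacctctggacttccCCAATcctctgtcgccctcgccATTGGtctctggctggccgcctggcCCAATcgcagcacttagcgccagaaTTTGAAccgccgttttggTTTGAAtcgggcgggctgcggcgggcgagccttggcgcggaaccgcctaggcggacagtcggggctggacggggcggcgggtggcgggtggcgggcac

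Cd44, the hyaluronan receptor by which memory cells are told from naive ones (chr2:102811141-102901665), lay at 49.7, 42.9, 39.4, 60.5 and 29.4 CPM in naive saline and at 94.4, 126, 122, 106 and 135 CPM in naive OVA libraries. In primed cells it lay between 141 and 221 CPM after saline and between 115 and 234 CPM after OVA. The naive groups were apart and the primed groups overlapped almost fully, with log2 fold changes of 1.40 (SE 0.21) and 0.01 (SE 0.16) and a difference of -1.38 (SE 0.26, adjusted p = 0.00777). Klrk1, encoding the activating receptor NKG2D (chr6:129610323-129623864), rose in naive cells from 20.3, 19.1, 27.3, 34.8 and 36.7 CPM to 128, 297, 212, 151 and 219 CPM, and had medians of 781.5 CPM after saline and 678 CPM after OVA in primed cells. Its difference was -2.94 (SE 0.37, adjusted p = 3.32e-05). Of the 13 killer lectin-like receptor genes tested, 2 rose in naive cells (Klrc1 and Klrk1) and 1 fell in primed cells (Klrb1c), against 1.14% and 1.94% of all tested genes. These receptor genes have close relatives, so their counts are less certain. The summed level of 11 NK cell markers ran from 788 to 907 CPM in naive saline, 975 to 1965 CPM in naive OVA, 1324 to 2886 CPM in primed saline and 834 to 4515 CPM in primed OVA libraries, none of them at 0 in a group, and its part in the results was not tested. That list holds Eomes, Prf1 and Gzma, which CD8 T cells also express. Of its 11 genes 1 rose and none fell in naive cells, and in primed cells Eomes rose and Klrb1c fell. Ncr1, which marks NK cells, passed in neither response. In the list of 24 naive and memory genes Cd44 was the 1 that differed, against 0.264% of all tested genes. Tcf7, which encodes the stemness factor TCF-1, had a difference of 0.01 (SE 0.29, adjusted p = 1.00).

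Of 16 genes of the S100, annexin and galectin families, calcium-binding and membrane-linked proteins whose transcripts mark activated and memory T cells, 5 rose in naive cells (S100a4, S100a6, S100a10, Anxa2 and Lgals1). In primed cells none rose and Capg fell. Of all tested genes 1.14% rose in naive cells, and 1.52% rose and 1.94% fell in primed cells. S100a4, S100a6 and Anxa2 differed, against 0.264% of all tested genes. S100a6 (chr3:90612882-90624181) lay at 24.9, 18.1, 16.3, 20.3 and 16.7 CPM in naive saline and at 78.1, 176, 119, 65.4 and 106 CPM in naive OVA libraries. In primed cells its range was 260.2 to 572 CPM after saline and 163 to 1062 CPM after OVA, so that the groups overlapped, and the difference was -2.19 (SE 0.43, adjusted p = 0.0119). Its call was lost without the 3 libraries with many detected genes (adjusted p = 0.0509) and with naive batch 1 alone (0.0595). S100a4 had a difference of -2.54 (SE 0.48, adjusted p = 0.0105) and Anxa2 of -1.77 (SE 0.34, adjusted p = 0.0107). The S100a4 call was lost with limma voom (adjusted p = 0.177) and with naive batch 1 alone (0.0717) or batch 2 alone (0.717). It was kept without the libraries with many detected genes (0.0181).

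Of 24 cytokine, costimulation and receptor genes tested, 3 rose in naive cells, against 1.14% of all tested genes. In primed cells 1 rose and 2 fell, against 1.52% and 1.94%. Il2 differed, against 0.264% of all tested genes. Il2, the T cell growth factor gene, was rare in naive cells, with 31 estimated counts over the 5 saline libraries and 185 over the 5 OVA libraries, and had medians of 3.29 CPM after saline and 3.00 CPM after OVA in primed cells. Its difference of -3.22 (SE 0.71, adjusted p = 0.0407) rests on these low counts and was lost in 20 of the 27 fits without 1 library, with an adjusted p of at most 0.145. Tnfsf14, encoding the costimulatory ligand LIGHT, fell in primed cells: its naive levels were 6.16, 6.08, 5.06, 4.29 and 7.86 CPM after saline and 6.92, 12.5, 10.1, 8.41 and 14.4 CPM after OVA, and in primed cells its median fell from 40.5 CPM (range 24.3 to 57.3) to 22.9 CPM (range 17.6 to 35.1). Its log2 fold changes were 0.83 (SE 0.25, adjusted p = 0.132) and -0.71 (SE 0.19, adjusted p = 0.0323), with a difference of -1.53 (SE 0.31, adjusted p = 0.0168), which was lost without naive batch 2 OVA 2 (adjusted p = 0.0708), naive batch 1 OVA 2 (0.0598) or naive batch 1 saline 3 (0.0532), without the 3 libraries labelled OT-II (0.0609), without the 3 with many detected genes (0.0628), with naive batch 1 alone (0.108) and with limma voom (0.203).

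Dkkl1, which encodes a secreted protein related to the Dickkopf Wnt inhibitors, had naive levels of at most 1.43 CPM after saline and 2.02 CPM after OVA. In primed cells it fell from a median of 20.9 CPM (range 13.7 to 26.5) to 8.45 CPM (range 3.93 to 13.5), and these groups did not overlap. The log2 fold change in primed cells was -1.16 (SE 0.21, adjusted p = 0.00194) and the difference -1.96 (SE 0.35, adjusted p = 0.00604). Bcl2a1d, a member of the A1 group of survival genes with near-identical copies, differed by -1.69 (SE 0.32, adjusted p = 0.0105), and Casp1, the inflammasome protease, by -1.09 (SE 0.22, adjusted p = 0.0168). Differences were called below 0 also for Chst2, Jdp2, Arl4d, Samd3, Stk39, Gpr55, Smyd1, Lancl3, Ttc39c, Pdgfb, Hsf4, Mpp2, 6330403K07Rik and Tspoap1, of which Jdp2 encodes an AP-1 repressor. Mpp2, with the lowest difference (-5.89), had 3 estimated counts in all naive saline libraries together. The Tspoap1 call was lost in 7 of the 27 fits without 1 library, and its value moved most without naive batch 1 OVA 1, the library with Cd4, where it lay at 60.3 CPM against 2.26 to 5.92 CPM in the other naive OVA and at most 1.23 CPM in the naive saline libraries. Its difference was -4.64 with all libraries, -3.19 without that library (adjusted p = 0.296) and -2.95 without both naive libraries with Cd4 (adjusted p = 0.697).

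No gene was called in the difference in the lists of antigen receptor early response genes (25 tested), interferon-stimulated genes (29), glycolysis and nutrient transport (19), nuclear (22) and mitochondrially encoded (13) genes of oxidative phosphorylation, sterol synthesis (20), heat shock and dissociation stress (16) or the T cell receptor complex (20). With 0.264% of all tested genes called, lists of these sizes would mostly hold no call, so nothing is read from this. Early response genes passed in naive cells in neither direction, where 1.14% of all tested genes rose. Fosl2, Myc, Ier2 and Ier3 fell in primed cells, against 1.94% of all tested genes. Myc, which encodes a transcription factor of T cell activation, fell by 0.70 (SE 0.17, adjusted p = 0.0224) in primed cells. In naive cells Myc had a log2 fold change of -0.49 (SE 0.23, adjusted p = 0.719), a difference of -0.21 (SE 0.29, adjusted p = 1.00). The naive groups of Myc did not overlap, with 246.8 to 298.6 CPM after saline and 161.1 to 246.7 CPM after OVA. Nr4a1, an immediate response gene of the antigen receptor, ranged from 31.6 to 763.6 CPM among primed OVA libraries, and its difference was -0.33 (SE 0.82, adjusted p = 1.00).

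**Figure D4:**
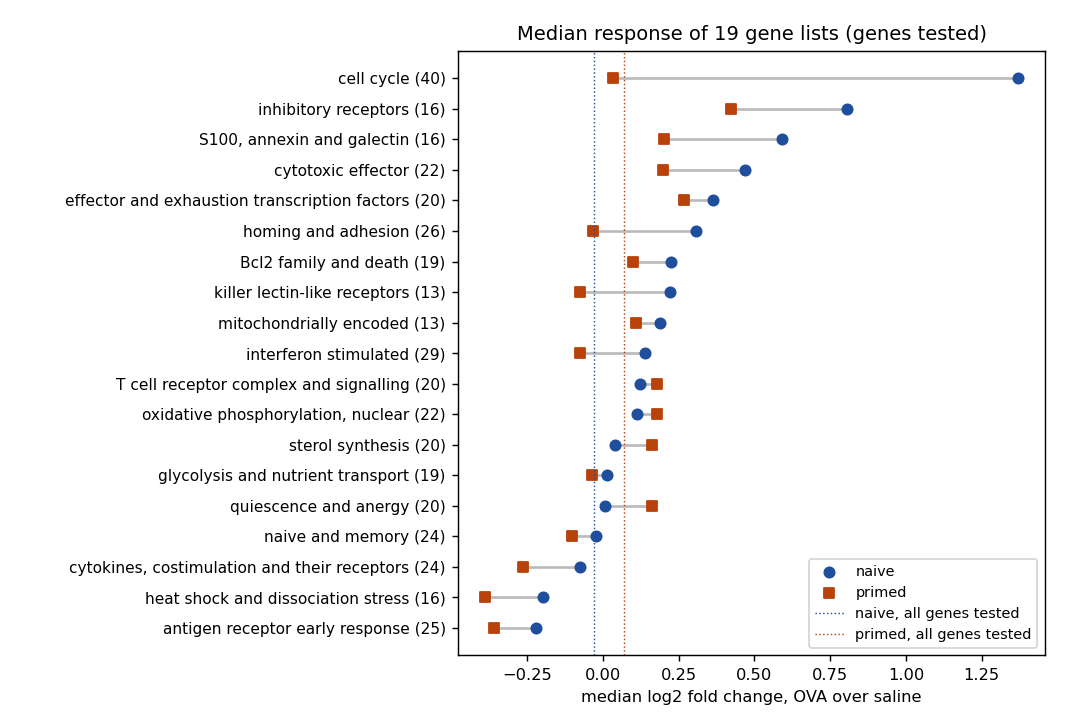
Median log2 fold change of OVA over saline in naive (circles) and primed (squares) cells for 19 gene lists, with the number of genes tested in parentheses and dotted lines at the medians over all tested genes. The cell cycle list has the highest naive median, 1.37, beside 0.03 in primed cells, and inhibitory receptors lie at 0.81 and 0.42.

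A higher saline level in primed than in naive cells went with the choice of these genes. In all 37, every primed saline library lay above every naive saline library, which holds for 6.50% of the tested genes, and in 34 the mean of primed saline exceeded the mean of naive OVA (53.4% of tested genes). A high primed saline and a low naive saline level both push the difference down, so genes chosen by it are drawn toward this pattern from both sides, the count is a description, and nothing is read from it against the share of all genes. A level across experiments cannot be told apart from the other differences between the collections. Among all 168 genes that rose in naive cells, 137 (81.5%) had every primed saline library above every naive one. The median log2 fold change of these 168 genes was 1.70 in naive and 0.46 in primed cells, and the primed value was below the naive one for 164 of them. These genes were chosen for a high naive value, which favours a smaller primed one, and the size of this effect was not tested. The opposite choice gave a pattern in the other direction. Of the 225 genes that rose in primed cells 177 had the smaller change in naive cells, with medians of 0.69 in primed and 0.40 in naive cells. The genes chosen had a median of 1.70 in the first choice and 0.69 in the second, and naive groups held fewer libraries. The 2 choices are therefore not alike, and nothing is read from the contrast of their counts.

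Other genes rose in both. Of the 168 genes that rose in naive cells 41 (24.4%) also rose in primed cells, where 1.52% of all tested genes rose, and none fell. The 41 are 18.2% of the 225 that rose in primed cells, and 1.14% of all tested genes rose in naive cells. Together with Vps37b, which fell in both, 42 genes were called in both, all with the same sign (24.9% of naive and 8.22% of primed calls). The 2 responses share no library. Across the 14775 genes, not weighted for counting error, the Pearson r of the fold changes was 0.055 (genes are not independent replicates). Genes called in 1 response mostly had the same sign in the other. In primed cells 150 of the 168 lay above 0, as did 8467 of all 14775 genes. In naive cells 207 of the 225 that rose in primed cells lay above 0, and 24 of the 286 that fell there, against 6710 of all 14775.

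Itga4, the integrin alpha 4 chain that pairs with Itgb1 to bind VCAM-1 (chr2:79255426-79333123), rose in both. It went from 96.7, 120, 126, 169.6 and 166 CPM to 259, 379, 334, 422 and 503 CPM in naive cells. In primed cells its median rose from 129 CPM (range 119 to 207) to 402 CPM (range 335 to 776). Neither pair of groups overlapped, and the saline levels of naive and primed cells did. The log2 fold changes were 1.49 (SE 0.22, adjusted p = 8.57e-05) and 1.65 (SE 0.18, adjusted p = 3.89e-06), and the difference was 0.17 (SE 0.27, adjusted p = 1.00).

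Fhl2, a LIM-domain cofactor of transcription, also had like saline levels, 5.50 to 10.3 CPM in naive and 4.47 to 15.5 CPM in primed cells, and rose by 1.62 (SE 0.32) and 1.89 (SE 0.26). Sh2d1a, encoding the SLAM adaptor SAP, rose by 1.34 (SE 0.15) and 0.89 (SE 0.12), and Serpinb6b, a serpin that inhibits granzyme A, by 1.39 (SE 0.23) and 1.04 (SE 0.18). In both, the primed saline libraries lay above the naive saline libraries, and neither pair of treatment groups overlapped. Their differences were -0.45 (SE 0.19) and -0.36 (SE 0.28), neither of which passed. Psen2, the presenilin 2 subunit of gamma-secretase, rose by 1.30 (SE 0.16) and 0.75 (SE 0.12), with a difference of -0.55 (SE 0.20, adjusted p = 0.677).

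**Figure D5:**
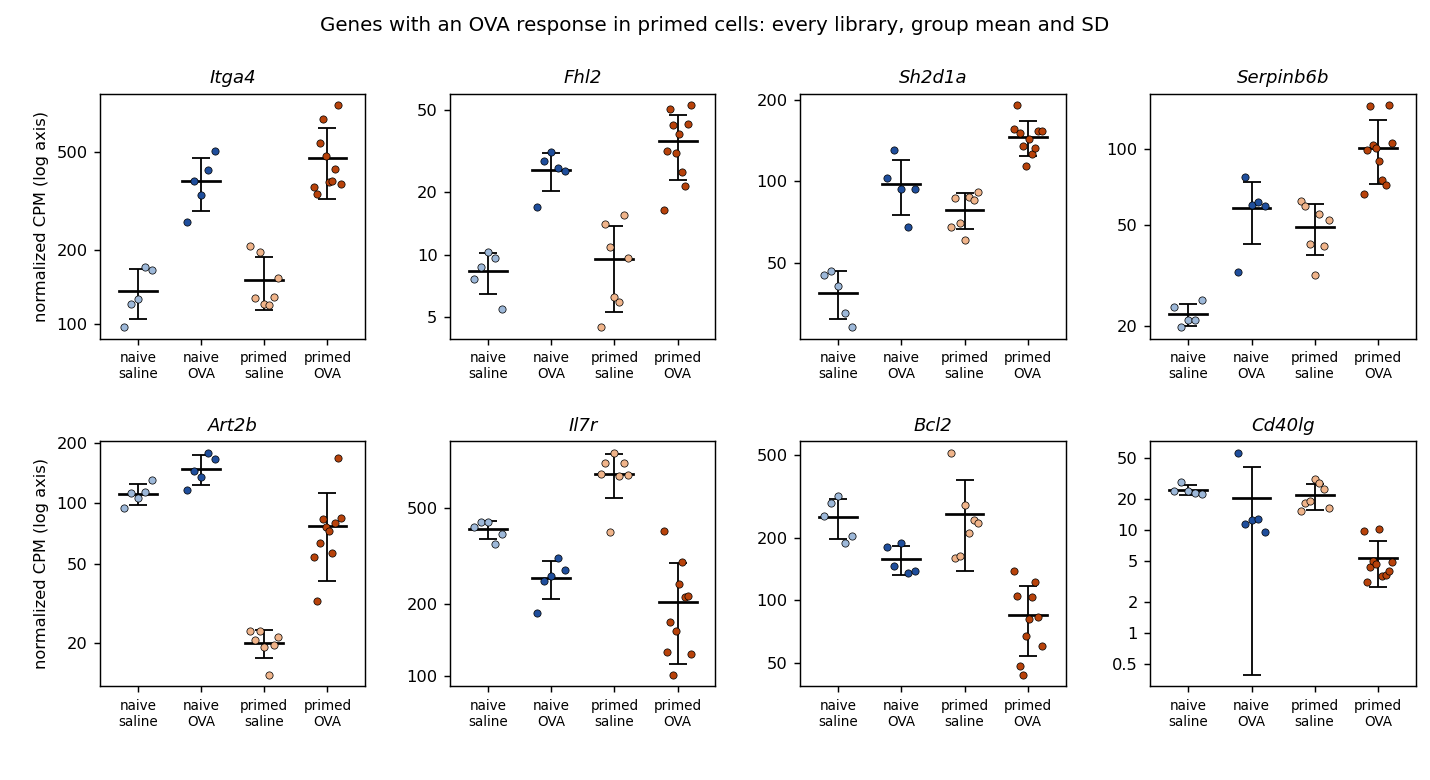
Normalized CPM on log axes of 8 genes that OVA changed in primed cells, with 1 point per library, a line at the group mean and a bar of 1 SD on each side, for naive saline (n = 5), naive OVA (n = 5), primed saline (n = 7) and primed OVA (n = 10) libraries. Itga4 and Fhl2 rise from like levels in both, Art2b starts lower in primed cells, and the high naive OVA point of Cd40lg is the library with Cd4.

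A larger response in primed cells was called for Art2b and Heyl. Art2b, encoding an ADP-ribosyltransferase of the T cell surface that is lost on activation, lay at 94.4, 113, 107, 114 and 130.3 CPM in naive saline and at 117, 146, 135, 179.7 and 167 CPM in naive OVA libraries. In primed cells it was low after saline, from 13.8 to 23.0 CPM (median 20.8), and rose to between 32.5 and 169 CPM (median 74.3) after OVA. The naive groups overlapped and the primed groups did not. The log2 fold changes were 0.41 (SE 0.25, adjusted p = 1.00) and 1.94 (SE 0.21, adjusted p = 3.89e-06), a difference of 1.53 (SE 0.32, adjusted p = 0.0249). The difference was not called without the naive libraries with Cd4 (1.52, adjusted p = 0.0696), without the libraries with many detected genes (1.52, adjusted p = 0.0761), or in 7 of the 27 fits without 1 library (naive batch 1 saline 2, saline 3, OVA 1, OVA 2 or OVA 3, naive batch 2 saline 2 or OVA 2), with an adjusted p of at most 0.0682. For Heyl, a Notch target, the estimated counts summed to 204 over the naive saline, 2 over the naive OVA, 2 over the primed saline and 74 over the primed OVA libraries, with 1 primed OVA library giving 38 of them, too few for a fold to be read.

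In the joint fit naive cells had 1 gene called lower (0.00677% of those tested), Vps37b, where a separate fit of the naive libraries called 259 lower. Vps37b was among the 286 that fell in primed cells (0.350% of them), so the overlap of lower genes says little. The median log2 fold change of the 286 in naive cells was -0.33, and of their differences those of Dkkl1 and Tnfsf14 were called. Il7r, the interleukin 7 receptor of memory cell survival, had a median of 690.2 CPM after saline (range 397 to 847) and 191 CPM after OVA (range 101 to 400.0) in primed cells. In naive cells it had 418, 437, 437, 354 and 391 CPM after saline and 183, 248, 261, 311 and 275 CPM after OVA. The naive groups did not overlap although the test did not call them. The log2 fold changes were -1.76 (SE 0.21, adjusted p = 1.79e-05) and -0.68 (SE 0.27, adjusted p = 0.513), and the difference of -1.08 (SE 0.34) had an adjusted p of 0.431.

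Bcl2, the survival factor that interleukin 7 maintains, fell by 1.60 (SE 0.22, adjusted p = 0.000142) in primed cells. In naive cells it had a log2 fold change of -0.66 (SE 0.28, adjusted p = 0.622), with a difference of -0.94 (SE 0.36, adjusted p = 0.791). Its naive groups did not overlap although the test did not call them, with 189.5 to 317.9 CPM after saline and 135.4 to 188.2 CPM after OVA. Cd40lg, the ligand by which helper cells license antigen-presenting cells, fell by 2.05 (SE 0.29, adjusted p = 0.000190) in primed cells. In naive OVA libraries it lay at 11.3, 12.5, 12.6 and 9.57 CPM and at 56.3 CPM in batch 1 OVA 1, the library with Cd4. Its difference was -1.67 (SE 0.48, adjusted p = 0.261), and -0.98 without the naive libraries with Cd4 (adjusted p = 1.00). The number of primed calls, 511 with all libraries, depended on the libraries. It was 255 without the 3 libraries labelled OT-II and 152 without the 3 with many detected genes. Without the latter 3 and the naive libraries with Cd4 it was 103, and without all of these sets it was 33. Single libraries moved it from 246 (without primed saline 5) to 1429 (without primed OVA 10).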

How the data were processed

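RNA of sorted CD8 T cells was sequenced with a full-length poly(A) protocol. The deposited tables hold estimated counts per protein-coding gene, as whole numbers and not scaled; per the submitters' processing notes the authors used bcl2fastq, kallisto 0.46.1 and GRCm38. The sources used here do not state the step from transcripts to whole-number gene values. Of 82 sample columns in 3 tables, 27 were used, over the 21823 shared gene symbols; 21806 of these had a GENCODE M21 position. Totals ran from 24.7 to 68.2 M counts; these are estimates from PCR reads, so low counts carry counting error beside the spread between libraries.

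Genes passing filterByExpr (14775) were scaled by TMM and fitted together with edgeR 4.0.16 (R 4.3.3, robust quasi-likelihood F test, two-sided), with a term for each collection (batch 1, batch 2, therapeutic) and an OVA term in naive and in primed cells. Adjusted p-values are Benjamini-Hochberg over all tested genes within a contrast, with 0.05 as threshold, and every difference is primed minus naive on the log2 scale. Levels are TMM-scaled CPM. The design was tested on simulated data for the difference (14624 genes, 100 changed at each size): 25% of 2-fold and 91% of 4-fold differences were recovered, with 8 false calls.

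Alternatives were DESeq2 1.42.0, limma 3.58.1 (voom), other scaling and filters, other sets of libraries, a replicate block and separate fits; leaving out the libraries that stood apart was chosen after seeing the data. Same-numbered libraries were compared in 12 pairs (correlations of their deviations from -0.21 to 0.126, 2 over 0.1), and the numbers were not taken as pairs. No libraries were identical. The labels name separate mice for primed libraries and pools of 3 mice for naive ones.

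The comparison, its members and the 19 pathway and 9 marker lists were chosen with earlier results of these data known, and the promoter motifs after values were seen. Genes were named by this rule: among called genes with at least 10 CPM in the highest group mean, the 6 highest and 6 lowest differences; up to 4 called genes per list; up to 5 genes called in both responses with each sign; and a panel of 20 genes. All 39 genes called in the difference are named beside these. Genes mentioned with a list count, Foxp3 and Ncr1 were added after their values were seen. So were Fhl2, Bcl2 and Cd40lg, taken from the genes with the smallest p in the primed response. Gene positions are from GRCm38 with GENCODE M21 and promoters from RefSeq (GRCm38.p6), where 32 of the 37 genes with a smaller primed response had a window. Some genes that this rule names are not reported here.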

Additional observations from a re-analysis of the deposited data

Results flagged for a closer look

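In 15 of 188 groups of libraries checked gene by gene, the highest or lowest library lay apart from the others by Dixon's criterion, which chance alone meets in about 1 in 20 groups. In naive saline cells batch 2 saline 1, the library with the most B cell marker RNA, was apart for Casp1 (13.87 CPM), Slamf7 (31.45 CPM), Klrg1 (5.609 CPM) and Smyd1 (0.02976 CPM), and batch 2 saline 2 for Gzmk (3.053 CPM). In naive OVA cells batch 1 OVA 1, the library with Cd4, was apart for Tspoap1 (60.27 CPM) and Runx2 (7.709 CPM), and batch 2 OVA 2 for Tcf7 (1397 CPM). In primed saline cells the lowest libraries were apart for Itgb1 (951.3 CPM, saline 1), Il7r (397.2 CPM, saline 4) and Art2b (13.78 CPM, saline 7). In primed OVA cells the library apart was OVA 10 for Stk39 (124.9 CPM) and Anxa2 (152.4 CPM), OVA 1 for Mki67 (43.08 CPM) and OVA 9 for Tspoap1 (0.2453 CPM).

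The OVA response itself differed between naive and primed cells for 39 genes by the interaction test in edgeR, here as log2 differences, primed minus naive. Among adhesion, guidance and surface receptors the difference was -3.41 for Nrp1, -2.77 for Itgb1, -1.72 for Cxcr3, -2.33 for Slamf7, -2.94 for Klrk1, -1.38 for Cd44 and -1.99 for Gpr55. Among inhibitory receptors it was -2.74 for Lag3 and -2.07 for Pdcd1. For ligands and secreted proteins it was -2.43 for Ifng, -3.22 for Il2, -1.53 for Tnfsf14, -1.96 for Dkkl1 and -1.82 for Pdgfb. For transcription factors it was -2.93 for Zbtb32, -2.12 for Jdp2, -1.44 for Runx2 and -2.67 for Hsf4. The Ctla2, S100, annexin and survival genes had differences of -2.53 (Ctla2a), -2.03 (Ctla2b), -2.54 (S100a4), -2.19 (S100a6), -1.77 (Anxa2) and -1.69 (Bcl2a1d). Casp1, the inflammasome protease, had -1.09. The division genes Mki67 and Tk1 had -2.38 and -1.90. Enzymes and other proteins had -2.14 (Chst2), -1.06 (Stk39), -3.06 (Smyd1), -1.41 (Arl4d), -1.14 (Samd3), -2.54 (Ttc39c), -3.27 (Lancl3), -5.89 (Mpp2), -4.64 (Tspoap1) and -2.01 (6330403K07Rik). The 2 positive differences were 1.53 for Art2b and 10.4 for Heyl, the latter a fitted value from very few counts that is no measure of size.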

How the results depend on the processing

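The 39, 169 and 511 calls (difference, naive, primed) became 82, 293 and 1171 with DESeq2 and 14, 100 and 485 with limma voom. They became 3, 48 and 228 with the therapeutic libraries grouped by label, 107, 808 and 143 in separate fits of the 2 experiments, 32, 99 and 353 with naive batch 1 alone, and 4, 19 and 149 with batch 2 alone. Primed calls fell to 255 without the libraries labelled OT-II, 152 without the 3 with many detected genes, 103 without these and the naive libraries with Cd4, and 33 without all of them. With replicate number as a block the calls were 42, 228 and 825, and 30 of the 42 were among the 39; the numbers did not pair the libraries. Leaving out 1 library gave 24 (without naive batch 1 saline 3) to 58 (without primed OVA 10) calls in the difference, 114 to 250 in naive and 246 to 1429 in primed cells. In primed cells the count moved by over 1.5 times without OVA 2 (921), OVA 3 (318), OVA 4 (321), OVA 6 (321), OVA 10 (1429), saline 1 (277), saline 5 (246) or saline 8 (327). Of the 39 genes 23 were called in all 27 of these fits. The other 16 (6330403K07Rik, Art2b, Casp1, Gpr55, Heyl, Ifng, Il2, Lancl3, Mki67, Pdgfb, Runx2, Tk1, Tnfsf14, Tspoap1, Ttc39c and Zbtb32) were lost in at least 1. In DESeq2, voom, block and every choice of libraries the 37 genes with a smaller primed response kept a difference below 0, and the median over the called genes ran from -1.85 to -2.42. The sign of some differences that were not called changed: Itga4 0.17 and Fhl2 0.26 became -0.26 and -0.43 without all sets of libraries, Myc -0.21 became 0.08 there, Havcr2 -0.28 and Nr4a1 -0.33 became 0.74 and 0.11 with batch 2 alone, and Cd40lg -1.67 became 0.07 by label. The cause of these shifts was not tested. With 5 libraries per naive group and 25% recovery of 2-fold differences on simulated data, differences of that size were seldom detectable.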
